A study of Rattus norvegicus with 144 samples.

Results

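Hepatic stellate cells sit between the sinusoidal endothelium and the hepatocytes, where they store retinoids and, when activated, lay down matrix. The genes described here are 5 that mark them: Lrat, which esterifies retinol for storage; Des, the intermediate filament desmin; Hgf, hepatocyte growth factor; Reln, the secreted glycoprotein reelin; and Ecm1, a secreted matrix protein. Every probe set that the platform annotation gives to one of these symbols was taken, without regard to its values. This gave 6 probe sets for 5 of the 14217 genes with a probe set on the larger array (31042 probe sets in all), 2 of them for Reln. The same 6 were among 15866 probe sets, for 10411 genes, on the smaller array. In both, the members were Lrat 1368570_at, Des 1367600_at, Hgf 1387701_at, Ecm1 1388698_at, Reln 1369093_at and Reln 1373957_at.

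The study gave male Sprague Dawley rats of 8 to 10 weeks daily oral doses of AMG A (0, 3 or 30 mg/kg) or AMG B (0, 3 or 60 mg/kg) for 1, 4 or 14 days. Its design text names antiangiogenic pharmacology as the effect under study, and neither compound's structure nor the vehicle of the 0 mg/kg rats is given in the sources used here. Liver RNA was hybridised from 4 animals in each of 18 groups, 72 liver arrays of 144 in all, each control group sharing its compound's study and day with the dosed groups. AMG A liver was measured on the smaller array and AMG B liver, like the adrenal and pancreas, on the larger, so the compounds were never tested against each other. Each value is a score: the probe set's signal after standardisation, so that over the arrays it has mean about 0 and SD about 1. A difference in score is therefore neither a fold nor an amount, and its size depends on how widely the gene varied over all tissues. As a check of the tissue label, 25 of 27 hepatocyte probe sets were higher in liver than adrenal, and 22 of 27 higher than in pancreas, in day 14 controls of the AMG B study.

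Stellate cells are known for taking up retinol and holding it as retinyl esters in lipid droplets, a reaction that Lrat catalyses. HGF acts on hepatocytes through the receptor Met, reelin through Vldlr and Lrp8 to the adaptor Dab1, and ECM1 holds TGF-beta in its latent form. Desmin belongs to the cytoskeleton of these cells and is shared with smooth and skeletal muscle, and Ecm1, Hgf and Reln are also made by other cell types.

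In the RefSeq annotation of assembly GRCr8, Lrat and Ecm1 both lie on chromosome 2 (chr2:170562148-170571212 and chr2:185976439-185981656), Reln and Hgf both on chromosome 4 (chr4:13628440-14055201 and chr4:19628902-19700467) and Des on chromosome 9 (chr9:84299626-84307344). The sequences just before the gene starts are shown for Lrat, the member that changed, and for Reln and Ecm1, whose scores followed each other most closely. All are RefSeq, GRCr8, 5′ to 3′ on the gene's strand and end at the last base before the annotated gene. Capitals mark GCGTG on either strand (the core of the aryl hydrocarbon receptor element, CACGC when read from the other strand) and CANNTG (the E-box, which reads alike on both strands). No 2 of the marked motifs overlapped.
Lrat: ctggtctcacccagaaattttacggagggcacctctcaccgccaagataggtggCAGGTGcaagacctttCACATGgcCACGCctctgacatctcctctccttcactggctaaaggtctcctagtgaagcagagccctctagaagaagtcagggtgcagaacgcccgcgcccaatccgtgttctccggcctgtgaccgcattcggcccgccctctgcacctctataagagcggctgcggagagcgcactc
Ecm1: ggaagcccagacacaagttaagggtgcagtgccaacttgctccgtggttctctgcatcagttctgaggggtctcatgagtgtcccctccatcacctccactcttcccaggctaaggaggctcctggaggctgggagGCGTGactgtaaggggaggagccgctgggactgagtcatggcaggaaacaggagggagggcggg
Reln: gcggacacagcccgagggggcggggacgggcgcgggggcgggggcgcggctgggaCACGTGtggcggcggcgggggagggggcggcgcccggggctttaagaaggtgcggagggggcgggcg
The Lrat window, chr2:170571213-170571462 on the minus strand, holds 1 GCGTG and 2 CANNTG in 250 bases. Of 33469 RefSeq windows of that length, 25.9% hold GCGTG and 65.5% hold CANNTG. The Ecm1 window, chr2:185981657-185981856 on the minus strand, holds 1 GCGTG and 0 CANNTG in 200 bases, a length at which 21.2% and 57.9% of windows hold them. The Reln window, chr4:13628318-13628439 on the plus strand, holds 0 GCGTG and 1 CANNTG in 122 bases, where the shares are 12.7% and 41.5%. The shares at 200 and 122 bases were counted in the first bases of every RefSeq window. Those windows were not cut at the annotated gene, so the counted bases need not lie just before a gene start. The windows of Hgf and Des, 250 bases each, hold 0 GCGTG and 2 and 1 CANNTG. These matches are letters in a window and no measured binding.

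Of the 6 probe sets, only Lrat passed the test against same-day controls, and only in AMG B liver at 60 mg/kg on day 14, where it fell. The other 5 did not pass at any dose or day of either compound. In the AMG B study, 1 of 36 member tests had an adjusted p under 0.05 (limma, Benjamini-Hochberg over all probe sets), 5 had an unadjusted p under 0.05, and in 5 the dosed and control animals did not overlap. In the AMG A study the same counts were 0, 1 and 1 of 36. The share of all probe sets under 0.05 before adjustment is not given here, but the rank of such a member is a lower bound. At 60 mg/kg of AMG B on day 14 Reln 1369093_at, under 0.05 before adjustment, ranked 5531 of 31042 by p. Hgf ranked 1626 of 31042 at 3 mg/kg of AMG B on day 4. Reln 1373957_at ranked 1198 of 15866 at 3 mg/kg of AMG A on day 1. Over all probe sets, the share whose dosed and control animals did not overlap in AMG B liver on days 1, 4 and 14 was 3.84%, 3.67% and 3.57% at 3 mg/kg and 5.39%, 8.12% and 9.79% at 60 mg/kg. In AMG A liver it was 4.71%, 3.84% and 4.99% at 3 mg/kg and 6.78%, 5.67% and 7.39% at 30 mg/kg. The share of all probe sets called in AMG B liver at 60 mg/kg was 0.0548% on day 1, 0.680% on day 4 and 5.66% on day 14. At 3 mg/kg it was 0.00966%, 0.0226% and 0%. In AMG A liver at 30 mg/kg it was 0.366%, 0.0693% and 0.353%, and at 3 mg/kg it was 0.0378%, 0.0126% and 0.0063%. In bulk liver, fewer stellate cells and less RNA per cell cannot be told apart.

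**Figure D1:**
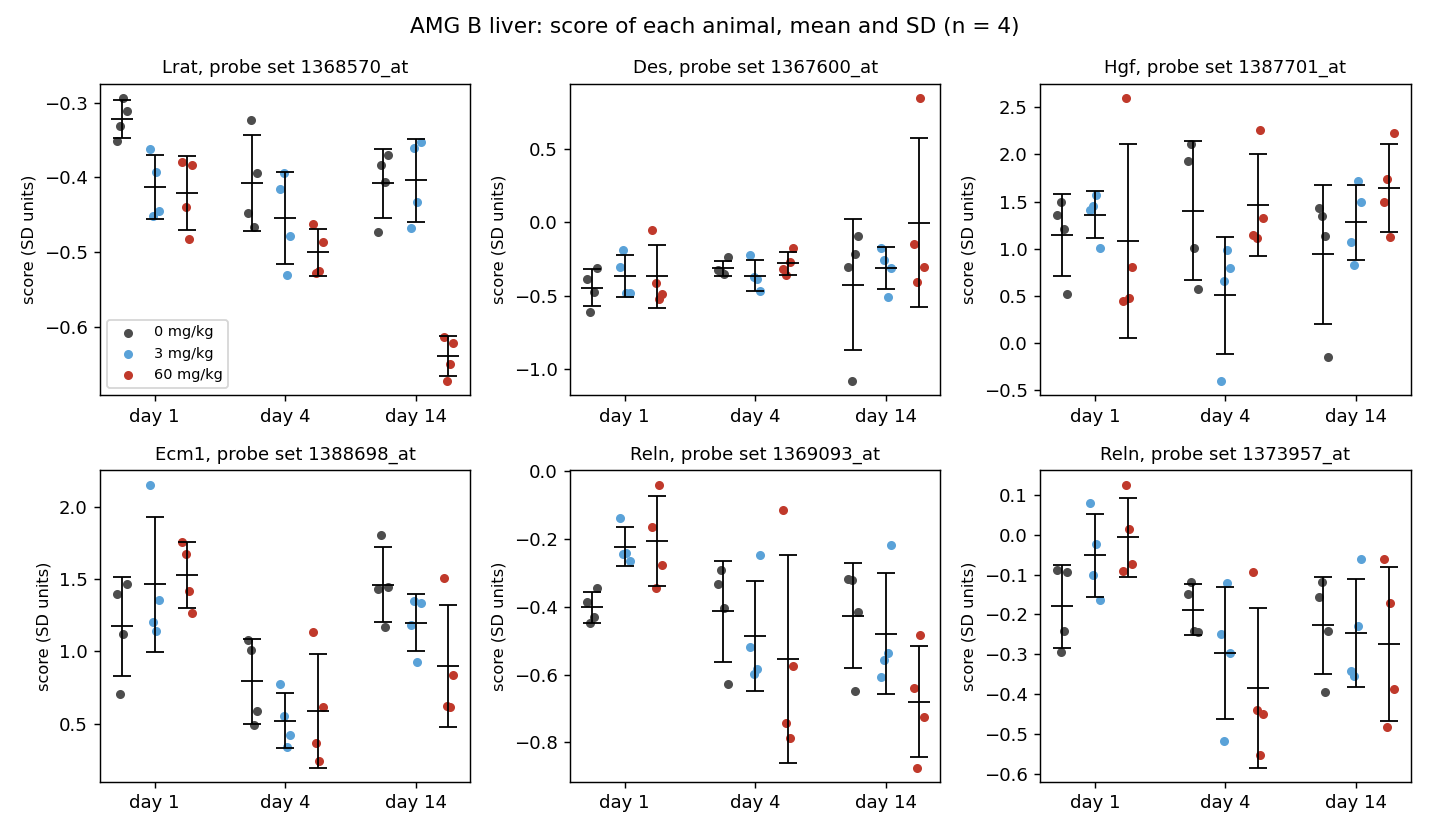
Scores of the 6 probe sets in AMG B liver (y axis, SD units) by day (x axis), with a point for each animal, the mean and the SD of each group of 4 in black, and 0, 3 and 60 mg/kg in grey, blue and red. The 4 Lrat scores at 60 mg/kg on day 14, -0.672 to -0.613, lie below every other animal of the study.

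Lrat had the smallest SD of the members on this scale. Scores were standardised over all tissues, and Lrat reached 2.99 in adrenal, so a small SD in liver need not mean steady expression. Its SD within groups was 0.0468 in AMG B liver, and 98.5% of all probe sets had a larger one. On day 14 the 4 controls scored -0.473, -0.384, -0.406 and -0.370, a mean of -0.408 ± 0.0460 (SD, n = 4). The 4 animals at 60 mg/kg scored -0.613, -0.672, -0.650 and -0.621, a mean of -0.639 ± 0.0269 (SD, n = 4). Every animal at the high dose lay below every control, as was the case for 9.79% of all probe sets in either direction. The difference was -0.231 (SE 0.0491, 95% interval -0.331 to -0.130), with an adjusted p of 0.00468 and rank 389 of 31042 probe sets by p. Among all probe sets, 2.71% were called lower and 2.96% higher in this comparison.

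The low dose did not share the fall in Lrat on day 14. The animals at 3 mg/kg scored -0.467, -0.361, -0.433 and -0.353, a mean of -0.404 ± 0.0556 (SD, n = 4), within the range of the controls but for the 2 highest. Their difference from control was 0.00449 (interval -0.0960 to 0.105), and 60 mg/kg lay below 3 mg/kg by a tested difference of -0.235 (interval -0.336 to -0.135, adjusted p = 0.00599). Lrat was the only one of 6 members called between the doses on day 14, where 3.79% of all probe sets were called.

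The Lrat call held when any of the 8 animals of that comparison was left out, with an adjusted p of 0.00657 to 0.0186. It was lost when only the compared groups were fitted in place of all 9: the difference was again -0.231 but the adjusted p was 0.270, and 85 probe sets were called in place of 1758. The difference between the doses was lost in the same way (adjusted p = 0.344).

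On days 1 and 4 Lrat differences from control were negative at both doses and none passed the test. The day 1 controls scored -0.352, -0.332, -0.294 and -0.311, and the animals at 60 mg/kg -0.379, -0.440, -0.482 and -0.383. These groups did not overlap, a separation seen for 5.39% of probe sets, and differed by -0.0991 (interval -0.200 to 0.00133, adjusted p = 0.632). Nor did the 3 mg/kg animals, at -0.362, -0.451, -0.393 and -0.445, overlap with the day 1 controls (difference -0.0909, adjusted p = 1), as 3.84% of probe sets did not. On day 4 the controls scored -0.447, -0.323, -0.467 and -0.393. The animals at 60 mg/kg scored -0.462, -0.528, -0.524 and -0.486, a difference of -0.0925 (adjusted p = 0.463). Only 1 control reached into the high-dose range. The 3 mg/kg animals, at -0.416, -0.395, -0.530 and -0.478, overlapped with both (difference from control -0.0469, adjusted p = 0.998).

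Put in order, the 9 group means of Lrat ran from -0.639 at 60 mg/kg on day 14, through -0.500 at 60 mg/kg on day 4 and -0.455 at 3 mg/kg on day 4, to a cluster from -0.421 to -0.404. That cluster held both doses of day 1, 3 mg/kg of day 14 and the controls of days 4 and 14. The day 1 controls were highest at -0.322. The step from the lowest group to the next was wider than the spread of either, and the groups from the second to the eighth each overlapped with their neighbours. The lowest day 1 control, at -0.352, lay just above the highest 3 mg/kg animal of day 14, at -0.353. The controls themselves moved by -0.0862 from day 1 to day 14 without overlapping (adjusted p = 0.752), beside 0% of probe sets called and 4.56% not overlapping. The high-dose difference was not shown to change from day 1 to day 14 (-0.132, interval -0.274 to 0.0104, adjusted p = 0.477).

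**Figure D2:**
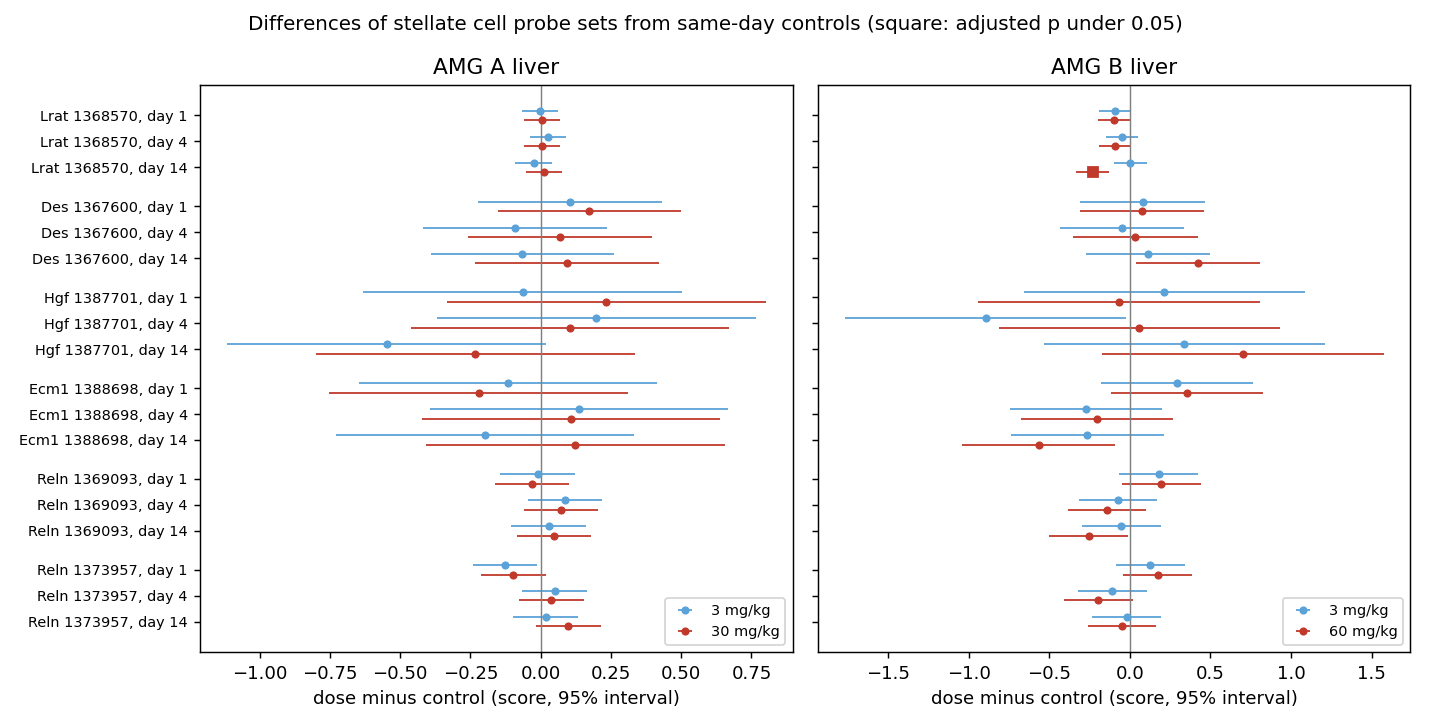
Difference in score of each probe set between a dose and its same-day control (x axis, with 95% interval), for AMG A liver (left panel) and AMG B liver (right panel), with 3 mg/kg in blue, the high dose in red, and a square for an adjusted p under 0.05. The only square is Lrat at 60 mg/kg of AMG B on day 14, at -0.231, and the panels, whose x axes differ, come from different arrays.

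Reln, whose product is a secreted ligand, was measured by a pair of probe sets whose differences from control had the same sign at all 6 doses and days in each study. In AMG B liver both were above control on day 1 and below it on days 4 and 14, and none of these differences passed the test. On day 1 the controls scored -0.385, -0.448, -0.429 and -0.345 on 1369093_at, and the animals at 60 mg/kg -0.164, -0.344, -0.0400 and -0.278. The groups were apart only by the last digits, with 1 dosed animal at -0.344 beside 1 control at -0.345 (difference 0.195, adjusted p = 0.722). The 3 mg/kg animals, at -0.139, -0.246, -0.241 and -0.266, stood clear of the controls (difference 0.179, adjusted p = 1). So 2 of 6 member probe sets were separated from day 1 controls at each dose, Lrat downward and this Reln probe set upward. Over all probe sets, 3.84% at 3 mg/kg and 5.39% at 60 mg/kg were separated that day in either direction. None of these member differences passed the test. By day 14 the controls were at -0.318, -0.322, -0.649 and -0.415 and the animals at 60 mg/kg at -0.639, -0.874, -0.482 and -0.726. The high-dose animals were mostly lower but overlapped with 1 control (difference -0.254, unadjusted p = 0.0418, adjusted p = 0.235). The change of the high-dose difference from day 1 to day 14 was -0.450 (adjusted p = 0.294), a comparison in which 0.193% of probe sets were called.

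The second Reln probe set, 1373957_at, followed the same signs, with smaller differences on days 1 and 14 and larger ones on day 4. Its means at 0, 3 and 60 mg/kg were -0.180, -0.0518 and -0.00551 on day 1, then -0.188, -0.297 and -0.384 on day 4. On day 14 they were -0.227, -0.246 and -0.275, with a difference at the high dose of -0.0480 (adjusted p = 0.860). The day 4 difference at 60 mg/kg was -0.196 (interval -0.409 to 0.0176, adjusted p = 0.465). In every one of these comparisons the dosed animals overlapped with controls on this probe set.

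Ecm1, the matrix protein gene, was low on day 4 in all AMG B groups, the controls included. The control means were 1.17 ± 0.344, 0.792 ± 0.295 and 1.46 ± 0.262 (SD, n = 4) on days 1, 4 and 14. On day 14 the controls scored 1.43, 1.81, 1.17 and 1.44 and the animals at 60 mg/kg 1.51, 0.624, 0.616 and 0.837. At the high dose 3 animals lay below every control and 1, animal 33, lay above 3 of them. The difference was -0.565 (interval -1.04 to -0.0931, unadjusted p = 0.0206, adjusted p = 0.161). Without animal 33 it was -0.770 (adjusted p = 0.0508), still outside the threshold. On day 1 the sign was the opposite, with a mean of 1.53 ± 0.226 (SD, n = 4) at 60 mg/kg (difference 0.356, adjusted p = 0.743). The change of this difference from day 1 to day 14 was -0.921 (interval -1.59 to -0.253, unadjusted p = 0.00856), which did not pass over all probe sets (adjusted p = 0.267). The 3 mg/kg means, 1.46, 0.520 and 1.20 on days 1, 4 and 14, overlapped with the controls on every day.

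Hgf, the growth factor, was among the noisier members, with an SD within groups of 0.619 and 24.0% of probe sets above it. On day 14 the controls scored 1.44, 1.35, 1.13 and -0.151 and the animals at 60 mg/kg 1.49, 1.73, 1.12 and 2.23. The mean difference of 0.703 (interval -0.169 to 1.57, adjusted p = 0.386) came down to 0.338 without the low control, animal 28. On day 4 the 3 mg/kg animals had the lowest mean but overlapped with the controls: controls scored 1.93, 2.11, 1.00 and 0.570, the 3 mg/kg animals -0.399, 0.654, 0.982 and 0.801, and the 60 mg/kg animals 1.14, 1.12, 2.26 and 1.33. The 3 mg/kg difference from control was -0.893 (unadjusted p = 0.0452, adjusted p = 0.860). The doses did not overlap on day 4 (60 minus 3 mg/kg 0.952, adjusted p = 0.447), beside 0.193% of probe sets called and 6.59% not overlapping. On day 1 the group means were 1.15, 1.36 and 1.08 at 0, 3 and 60 mg/kg, with 1 high-dose animal at 2.60 and the other 3 from 0.442 to 0.808.

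Des, the filament gene, had its widest difference on day 14, and it moved with single animals. The controls scored -0.306, -1.08, -0.219 and -0.0952 and the animals at 60 mg/kg -0.150, -0.406, 0.852 and -0.302. The difference was 0.424 (interval 0.0372 to 0.811, unadjusted p = 0.0328, adjusted p = 0.206). Without the highest dosed animal, animal 35, it was 0.139, and without the lowest control, animal 26, it was 0.205. Animal 35 also differed from the rest of its group in markers of leucocytes. Its mean score over 7 neutrophil probe sets was 1.44 where the other 3 lay between -0.0558 and 0.0273. Over 17 Kupffer cell and macrophage probe sets it was 1.21 where the others lay between -0.399 and -0.0435. The day 14 controls lay between 0.667 and 1.52 on the Kupffer probe sets, so animal 35 was within their range. Animal 31, at 3 mg/kg on day 14, had a neutrophil mean of 1.20 and a Kupffer mean of 1.47. Its Des score, -0.511, was the lowest of its group. The part of these cells in the Des score was not tested. The other 5 Des differences in AMG B liver ran from -0.0481 to 0.114.

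In AMG A liver no member passed the test at any dose or day, and the lowest adjusted p of the 36 tests was 0.434. Lrat was at nearly the same score in all 9 groups, with means of -0.712 to -0.646 and an SD within groups of 0.0283. Its 6 differences from control ran from -0.0250 to 0.0253, and all their 95% intervals lay within -0.0894 to 0.0896. These scores were standardised together with AMG B liver but measured on another array, so the width of that interval cannot be set against the AMG B difference. Ecm1 group means ran from 0.316 to 0.760 with differences of -0.221 to 0.136, and Des differences from -0.0910 to 0.174. The widest was Hgf at 3 mg/kg on day 14, with a mean of -0.631 against -0.0842 in controls (difference -0.547, adjusted p = 0.655). Without its lowest dosed animal, at -1.29, that difference was -0.329. Reln 1373957_at at 3 mg/kg on day 1 had the only unadjusted p under 0.05 (limma, 0.0327), at a mean of -0.653 against -0.526 in controls, and an adjusted p of 0.434. Reln 1369093_at at 30 mg/kg on day 4 was the only member whose groups did not overlap (difference 0.0733, adjusted p = 0.754), beside 5.67% of probe sets. Reln 1373957_at was also lower in day 14 than in day 1 controls, at -0.684 against -0.526 (unadjusted p = 0.00891, adjusted p = 0.490), where 0.0441% of probe sets were called.

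**Figure D3:**
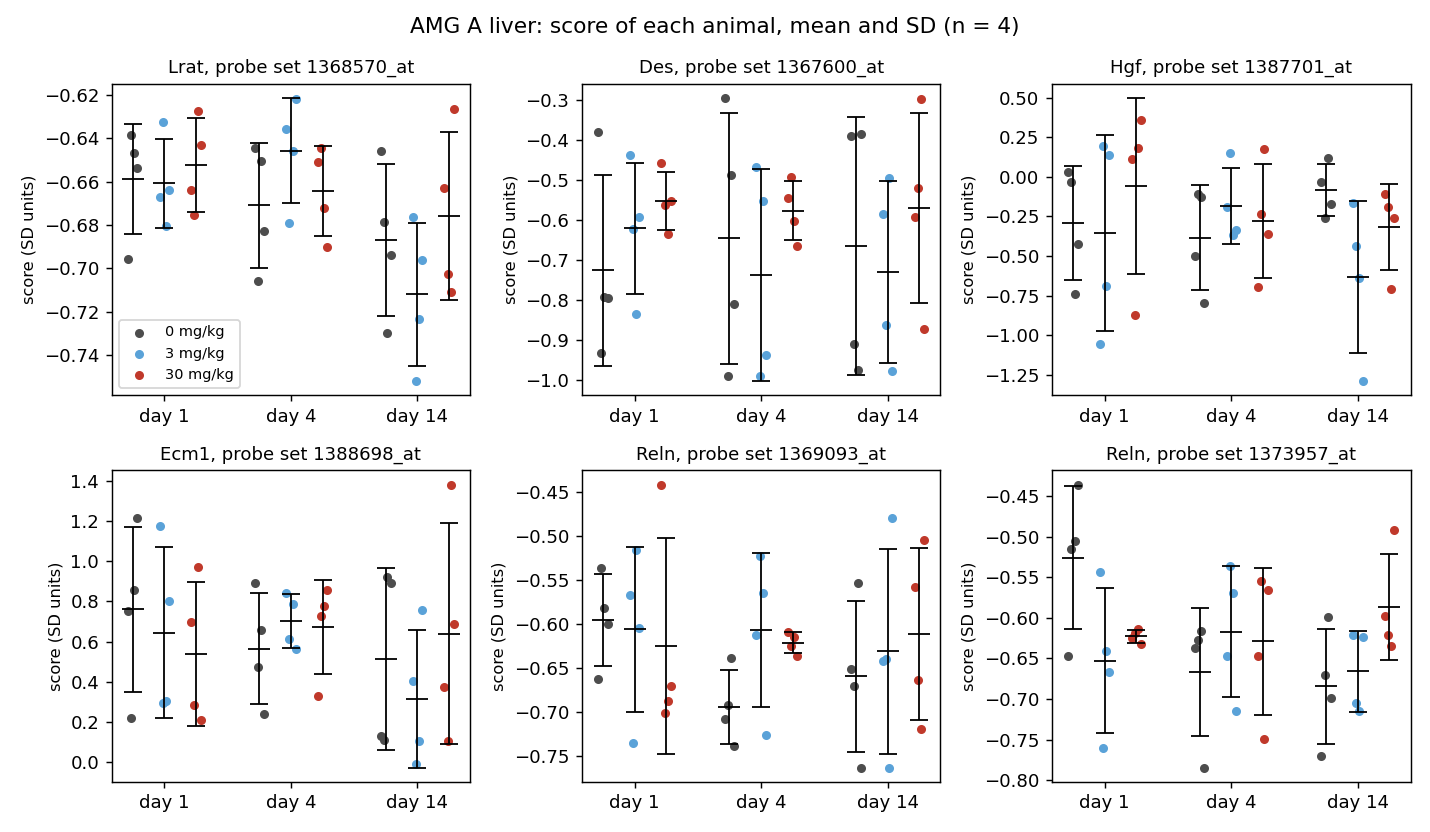
Scores of the 6 probe sets in AMG A liver (y axis, SD units) by day (x axis), with a point for each animal, the mean and the SD of each group of 4 in black, and 0, 3 and 30 mg/kg in grey, blue and red. Dosed animals and controls overlap in all panels and days except Reln 1369093_at at 30 mg/kg on day 4, and the Lrat axis covers the narrowest range.

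The members differed in how specific they were to liver. Day 14 controls of the AMG B study gave liver, adrenal and pancreas from the same 4 animals, and 4 of 6 members were called in each comparison with liver, where 49.3% (adrenal) and 59.3% (pancreas) of all probe sets were. Ecm1 was the member highest in liver, with means of 1.46, -0.651 and -0.977 in liver, adrenal and pancreas (liver minus adrenal 2.11, adjusted p = 1.09e-06; liver minus pancreas 2.44, adjusted p = 2.86e-07). Lrat was highest in the adrenal, where the 4 animals scored 0.796, 2.38, 1.54 and -0.0138. Liver lay below it by -1.58 (interval -2.44 to -0.725, adjusted p = 0.00544), a call lost without animal 27 (adjusted p = 0.0504). Lrat in pancreas, at -0.775, -0.745, -0.762 and -0.650, lay below every liver (difference 0.325, adjusted p = 0.496). This difference passed when only the compared groups were fitted (adjusted p = 0.0425) and was 0.0283 after quantile normalisation (adjusted p = 0.964).

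Both Reln probe sets lay between the tissues, below adrenal (-1.07 and -0.953, adjusted p = 9.81e-05 and 0.00117) and above pancreas (0.658 and 1.21, adjusted p = 0.00254 and 0.000161). After quantile normalisation the first of these differences from pancreas was 0.285 and did not pass (adjusted p = 0.190). Hgf did not pass in either comparison (0.976 and 1.21, adjusted p = 0.174 and 0.0838), and its difference from pancreas ran from 0.695 without animal 25 (adjusted p = 0.269) to 1.79 without animal 28, the only omission with which it passed (adjusted p = 0.0177). Des was lower in liver than in pancreas (-0.599, adjusted p = 0.0353), a call lost when any 1 animal was left out (0.0629 to 0.105), and did not pass against adrenal (-0.356, adjusted p = 0.208; -0.0751 without animal 26). Over these 12 arrays Lrat ran from -0.775 in pancreas to 2.38 in adrenal, and its fall in liver from -0.408 to -0.639 covers a small stretch of that range.

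**Figure D4:**
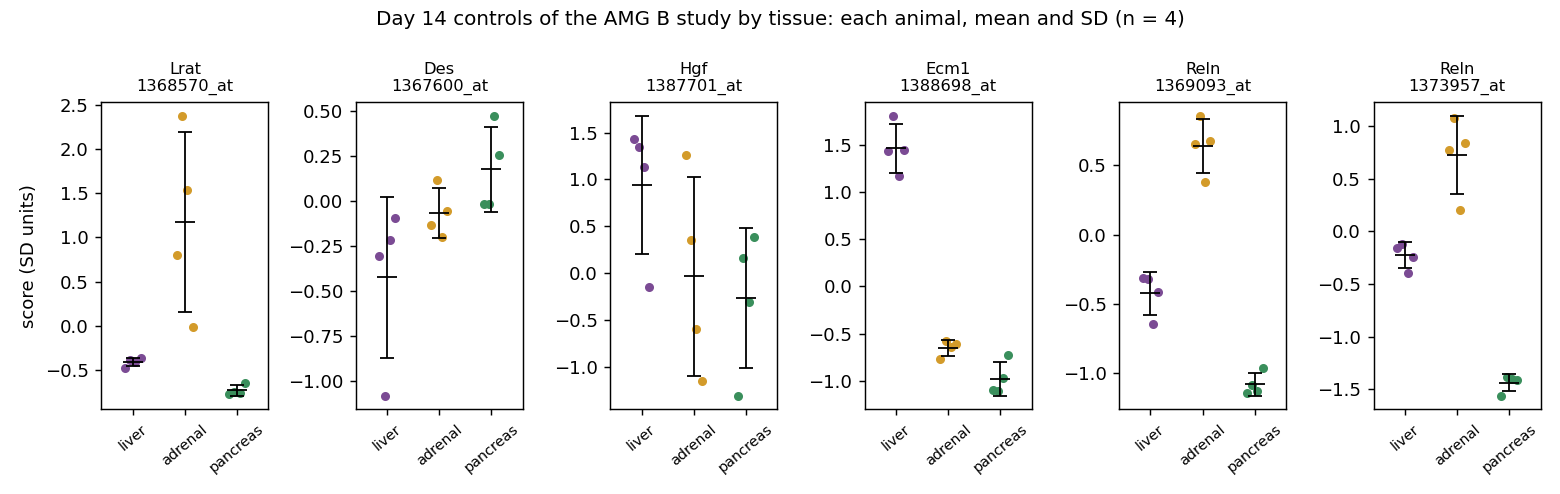
Scores (y axis, SD units) of the 6 probe sets in liver, adrenal and pancreas (x axis) of the 4 day 14 controls of the AMG B study, with a point for each animal and the mean and SD in black. Ecm1 is highest in liver at a mean of 1.46, whereas Lrat and both Reln probe sets are highest in adrenal.

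Other markers of stellate cells were counted from a list of 33 genes, of which 26 had 40 probe sets on the larger array. This list and those below were chosen with earlier results of these data known, so their shares of calls are no independent test. At 60 mg/kg of AMG B on day 14, 7 probe sets fell and 1 rose, 20.0% of the list beside 5.66% of all probe sets, with a median difference of -0.0709 beside 0.0121 over all. Leaving out each animal in turn gave 6 to 8 lower and 1 to 2 higher, and fitting only the compared groups gave 0, as for Lrat. Vipr1, a receptor for vasoactive intestinal peptide, fell on 1 of its 2 probe sets from 1.50 ± 0.112 (range 1.39 to 1.62) to 0.571 ± 0.222 (0.293 to 0.783, SD, n = 4; adjusted p = 2.32e-05). Its other probe set overlapped between the groups and did not pass (-0.590, adjusted p = 0.265). Colec11, a soluble collectin, fell from a control range of 1.21 to 1.64 to a range of 0.591 to 0.895 (difference -0.699, adjusted p = 0.00234). Angptl6, an angiopoietin-like secreted protein, fell by 0.983 (adjusted p = 0.00366), from 1.15 to 1.85 down to 0.278 to 0.694. On these 3 called probe sets, as on Lrat, the groups did not overlap. Rgs5, a regulator of G protein signalling known from pericytes, went the other way, from a range of -0.386 to 0.497 up to 0.393 to 1.77 (difference 1.29, adjusted p = 0.00593). The probe sets that were not called went both ways, from -1.35 for 1 of Pdgfrb to 1.29 for 1 of Ntm. Gfap (-0.0805), Lhx2 (0.0343), Cygb (0.142) and Pdgfra (0.117) were among them.

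Some of these markers passed the test on day 4 as well. At that time at 60 mg/kg 3 of the 40 probe sets fell and 0 rose, beside 0.680% of all probe sets called in either direction. They were Vipr1 (-0.711, adjusted p = 0.00172) and Pth1r, the parathyroid hormone receptor (-1.02, adjusted p = 0.00706), each on 1 of 2 probe sets, and Colec11 (-0.666, adjusted p = 0.0138). On day 1 limma called 0, and 3 had p under 0.05 before adjustment. At 3 mg/kg of AMG B the list had 0 calls on all days. Before adjustment, 1, 1 and 0 of its probe sets had p under 0.05 on days 1, 4 and 14. In AMG A liver at 30 mg/kg, 30 probe sets gave 0 calls, with 3, 2 and 2 before adjustment. The shares of all probe sets under 0.05 before adjustment are not given here, so the unadjusted counts are not read as a result. Whether the differences changed between day 4 and another day was not tested. The change from day 1 to day 14 at 60 mg/kg of AMG B was tested over all probe sets (0.193% called). It is not given here for single markers.

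**Figure D5:**
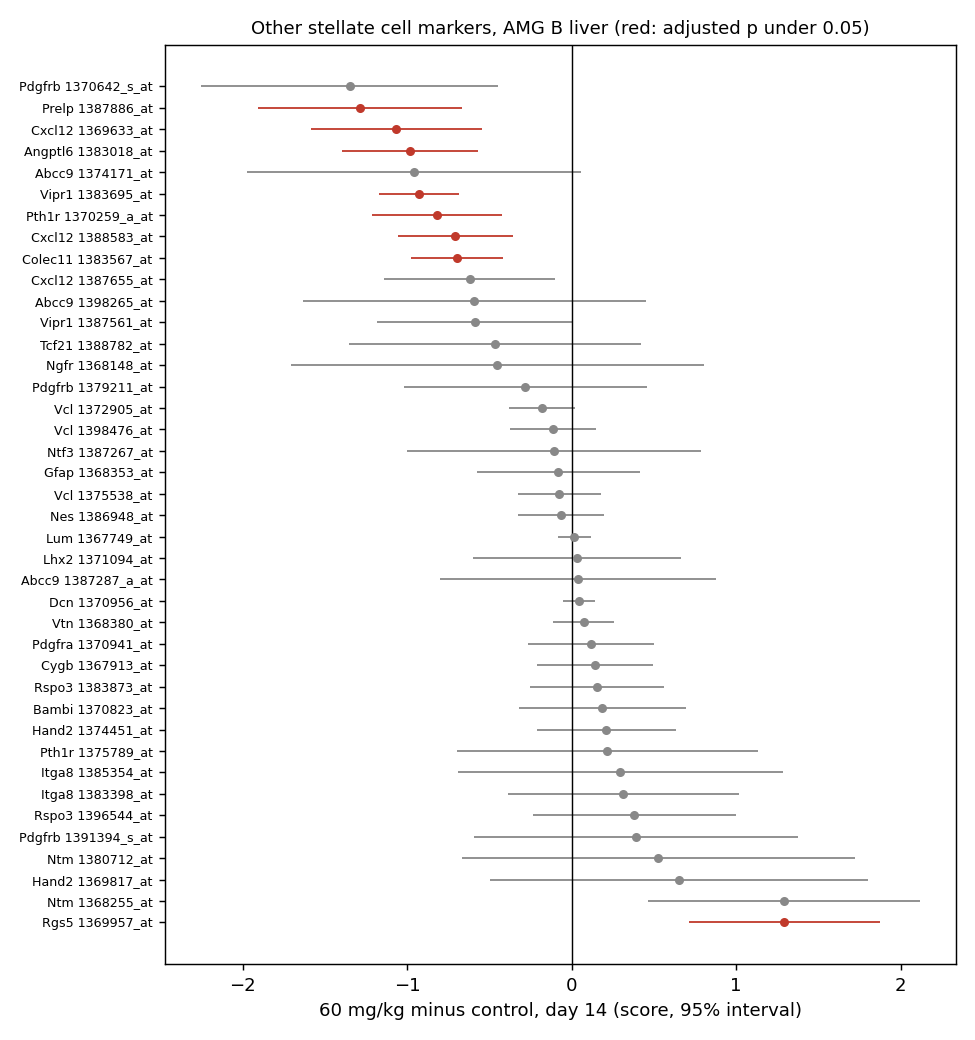
Difference in score between 60 mg/kg of AMG B and control on day 14 (x axis, with 95% interval) for 40 probe sets of 26 other stellate cell markers (y axis), with an adjusted p under 0.05 in red. The 7 red points left of 0 and the 1 right of it (Rgs5, at 1.29) stand among 32 grey ones.

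Genes around each member were counted at the same dose and day. Of 49 probe sets of retinoid storage and signalling, the surroundings of Lrat, 3 fell and 1 rose, 8.16% beside 5.66%. Plin2, a coat protein of lipid droplets, fell on both called probe sets (-0.979 and -1.48, adjusted p = 0.0111 and 0.0121), as did Dhrs3, a retinaldehyde reductase (-0.849, adjusted p = 0.0314), while Rxra, a retinoid X receptor, rose (0.869, adjusted p = 0.0221). Without animal 35 this list had 1 higher and 0 lower, and without animal 25 or 34 it had 0 higher and 2 lower. For Hgf, 35 probe sets of its activation, receptor and signalling gave 3 higher and 3 lower (17.1%). The receptor Met rose (1.13, adjusted p = 0.0137), as did Stat3 (2.58, adjusted p = 0.0195) and the phosphatase Ptpn11 (1.49, adjusted p = 0.0124). The co-receptor Nrp1, which is also an endothelial gene, fell on both its probe sets (-1.70, adjusted p = 2.74e-06; -0.717, adjusted p = 0.0215). Met had 1 probe set, and Stat3 and Ptpn11 each rose on 1 of 2.

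For Reln, 39 probe sets of its receptors and signalling gave 0 higher and 3 lower (7.69%), and 1 lower when animal 25, 26, 27, 33 or 35 was left out. They were 2 of Notch1 (-1.33, adjusted p = 0.00626; -0.202, adjusted p = 0.0322) and 1 of 4 of Dab1, the adaptor downstream of the reelin receptors (-1.79, adjusted p = 0.0328). A single Dab1 probe set was lowest on day 1, at -3.29 ± 0.656 (-4.03 to -2.43) at 60 mg/kg against 0.0578 ± 0.0975 (SD, n = 4) in controls (adjusted p = 0.00192). Its 3 mg/kg mean that day was -0.905, and the day 1 scores of the other Dab1 probe sets are not given here. Among 30 probe sets of intermediate filaments and their partners, chosen around Des, the linker Dst rose on 1 of 5 probe sets (1.04, adjusted p = 0.00119) and the sarcomeric protein Ldb3 fell on 1 of 6 (-0.885, adjusted p = 0.0327), 6.67% in all. Only 1 of these was called without animal 26, 27, 28 or 34, and 3 without animal 33. Among 32 around Ecm1 and latent TGF-beta, 2 rose and 2 fell (12.5%), and 1 of each without animal 27, 34, 35 or 36. Itgb5 fell on 1 of 3 probe sets (-1.84, adjusted p = 1.14e-05) and its integrin partner Itgav rose on 1 of 3 (0.481, adjusted p = 0.00806). Of the TGF-beta receptors, Tgfbr3 rose on 1 of 2 (0.990, adjusted p = 0.0317) and Tgfbr1 fell on 1 of 2 (-0.777, adjusted p = 0.0419).

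Among markers of activated stellate cells more probe sets fell than rose. Of 48, 7 fell and 2 rose (18.8%), and leaving out each animal gave 5 to 7 lower and 2 higher. Both Sparc probe sets, for a collagen-binding matrix protein, fell (-0.444 and -0.543, adjusted p = 7.11e-05 and 7.23e-05), as they did on day 4. Col3a1, a fibrillar collagen, fell (-0.721, adjusted p = 0.00305) and so did the gelatinase Mmp2 on 1 of 2 probe sets (-0.394, adjusted p = 0.00799). The 2 probe sets that rose were both of Tpm1, a tropomyosin (0.599 and 0.918), of which a further probe set fell (-0.396). With only the compared groups fitted, 0 probe sets of these lists were called.

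Markers of other liver cells moved on the same arrays. On day 14 at 60 mg/kg, 10 of 26 endothelial probe sets fell and 0 rose (38.5%), and 10 of 17 of Kupffer cells and macrophages fell (58.8%). Without animal 25 or 26 these counts were 6 or 5 endothelial and 5 or 6 Kupffer probe sets, and without animal 33 or 34 the Kupffer count was 6. With only the compared groups fitted both were 0. Of 10 erythroid and blood probe sets 3 fell (30.0%): Hbb and Hba-a3, globin genes, and Alas2, the first enzyme of erythroid haem synthesis. These were the only calls in any of the lists when only the compared groups were fitted, again 3 lower. The mean erythroid score ran from 0.395 to 0.544 in controls, from -0.290 to 0.227 at 3 mg/kg and from -0.891 to -0.302 at 60 mg/kg, with no dosed animal reaching the controls. The mean endothelial score ran from 0.0747 to 0.776 in controls and from -0.236 to -0.192 at 60 mg/kg. The Kupffer mean ran from 0.667 to 1.52 and from -0.399 to 1.21. The mean over the other stellate markers ran from 0.410 to 0.492 and from 0.190 to 0.435. Of 25 smooth muscle and pericyte probe sets 1 rose and 1 fell, and of 21 of portal fibroblasts and 17 of skeletal muscle 0 were called. The hepatocyte mean ran from 0.521 to 1.20 in controls and from 0.815 to 1.21 at the high dose. The part of these cells in the Lrat difference was not tested.

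Among all 36 AMG B liver arrays, the genes whose scores followed each member most closely are given as a description, since the arrays share doses, days and processing. Of 20825 probe sets with 1 symbol, the nearest to Lrat were Cd37, a leucocyte tetraspanin (Pearson r = 0.841, Spearman rho = 0.776), Plxnd1, a semaphorin receptor (0.806, 0.759) and Nrp1 (0.801, 0.643). The nearest to Reln 1373957_at were Pam (r = 0.830), Col14a1 (0.819) and Bgn (0.801), the last a matrix proteoglycan. Col14a1 and Pam also led for Reln 1369093_at (0.761 and 0.759). The nearest to Ecm1 were Gucy1b1, a subunit of soluble guanylate cyclase (r = 0.753), Ramp1 (0.742) and Bmp5 (0.730). For Des the leading genes had a high r but a low rank correlation (Epor r = 0.772, rho = 0.403; Shc1 0.762, 0.369; Pold2 0.757, 0.271). Hgf had no close partner, the first being Nrip2 at r = 0.561.

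Between the members themselves the closest pair was the 2 Reln probe sets, with r = 0.774 over the 36 arrays and 0.678 after each group's mean was removed. Reln 1373957_at and Ecm1 came next (0.687, and 0.597 within groups), then Reln 1369093_at and Ecm1 (0.586 and 0.481). Lrat and Ecm1 stood at 0.415 (0.461 within groups), and Lrat and Reln 1369093_at at 0.483 (0.199 within groups). In AMG A liver the Reln pair again led with 0.552 (0.540 within groups), and Reln 1373957_at and Ecm1 stood at 0.438 (0.392).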

How the data were processed

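Expression was measured on Affymetrix arrays of liver, adrenal and pancreas. Per the labels, total RNA was purified with an RNeasy midi kit and 5 ug labelled with biotin in one cycle. The authors deposited scores, standardised per probe set: over the 15866 probe sets of both tables together, 98.7% had an SD of 0.95 to 1.05 and 78.0% were right-skewed. How the signal was summarised and scaled is not given in the sources used here, so scale and background are unknown. Precision is limited by the number of arrays. Array medians ran from -0.774 to -0.729 in the smaller table (36 arrays) and from -0.109 to 0.0624 in the larger (108 arrays), so each table was tested alone.

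Probe sets were named from the platform tables through Entrez numbers: 20826 of the larger array had 1 symbol, 436 several and 9780 none, and 12783, 312 and 2771 of the smaller. All columns matched a sample (0 unmapped). Scores were fitted as deposited with limma 3.58.1 (R 4.3.3; lmFit, contrasts.fit, eBayes with trend) over all probe sets, with 1 term for each of a study's 9 liver groups. The tissue fit used the 12 day 14 control arrays. Tests were 2-sided, with Benjamini-Hochberg adjustment within each comparison and a threshold of 0.05. Tables and figures used Python 3.11.15, pandas 2.3.3 and matplotlib 3.10.9. The fit was tested on simulated data, of which no result is given here. Animals were separate, so p-values measure the spread between animals. In the tissue fit the replicate number is the animal: deviations of its liver and adrenal had a median r of 0.0305 (-0.00974 for different animals), and those of its liver and pancreas 0.00465 (0.000639). All 6 member probe sets were described, with no filter on low values. Of each other list, counts and up to 4 genes with the smallest adjusted p are given. The members, lists and tests were chosen with earlier results of these data known. Alternatives were other normalisations, fits, probe set choices and leaving out each animal.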

Additional observations from a re-analysis of the deposited data

Results flagged for a closer look

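Among 108 sets of 4 liver scores (6 probe sets in 18 groups), 3 held 1 animal far from the other 3, where chance alone gives about 1 in 20. Hgf in AMG B liver at 60 mg/kg on day 1 was 2.60 in animal 10, with the others from 0.442 to 0.808. Reln 1369093_at in AMG A liver at 30 mg/kg on day 1 was -0.441 in animal 3025, with the others from -0.702 to -0.670. Reln 1373957_at in AMG A control liver on day 4 was -0.784 in animal 3008, with the others from -0.637 to -0.617.

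Of 72 sets of dosed scores in the adrenal and pancreas, which enter no dose comparison above, 2 had every animal above every same-day control and 1 had every animal below. Over all probe sets these shares ran from 1.10% to 8.37% and from 0.941% to 9.52% in the 12 dose comparisons of these tissues. The 2 above were both in pancreas of AMG B at 3 mg/kg on day 14. Des had a mean of 1.37 (0.666 to 2.63), with the highest control at 0.471. Reln 1373957_at had a mean of -1.17 (-1.38 to -1.05), its lowest animal just above the highest control at -1.38. For that comparison 1.89% of all probe sets lay above every control. Des went the other way in pancreas of AMG A at 3 mg/kg on day 14, with a mean of -0.234 against 0.762 in controls (highest dosed animal 0.0204, lowest control 0.117), where 1.40% of probe sets lay below every control. At 60 mg/kg of AMG B and at 30 mg/kg of AMG A, 0 members lay above or below every pancreas control. Des ran there from -0.0520 to 8.37 and from 0.0463 to 2.99. None of these differences was tested.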

How the results depend on the processing

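Over 24 comparisons and 383 alternative counts of called members, 381 stayed within 1.5 times the main count and 2 moved. Both were with only the compared groups fitted: 0 members in place of 1 for 60 mg/kg minus control (85 probe sets called in place of 1758) and for 60 minus 3 mg/kg (7 in place of 1176) in AMG B liver on day 14. Fewer arrays then estimate the spread, and the part of this in the lost calls was not tested. No difference that was called in any setting changed sign. Lrat on day 14 kept its call in 7 of 8 other alternatives (difference -0.237 to -0.209), and its difference without each animal ran from -0.253 to -0.218. The total of called probe sets moved more: without 1 animal it ran from 1083 to 1589 for 60 mg/kg and from 568 (without animal 30) to 1279 between the doses. With 1 probe set per gene it was 1041 and 747, and with the mean of a gene's probe sets 1034 and 772. These are counts over 14217 genes in place of 31042 probe sets, so the totals cannot be set side by side. With the animal as a replicate block in the tissue fit, 4 members were called in each comparison, as without it. The standardised scale hides fold changes and background, and 4 animals a group limit what could be seen for Hgf, Des and Ecm1.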
